A study of Mus musculus with 28 samples.

Results

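The genes described here are 10 immunoglobulin-superfamily receptors by which T cells receive co-stimulatory or inhibitory signals: *Pdcd1*, *Lag3*, *Tigit*, *Havcr2*, *Ctla4*, *Icos*, *Cd28*, *Cd226*, *Cd96* and *Btla*. They were chosen by symbol, and each of the 10 matched 1 of the 53801 features of the expression table. Their mRNA was measured in bulk RNA-seq libraries of Treg cells sorted as TCR+CD4+CD25hi CD127lo cells from spleens and from CT2A tumors grown in the forebrain of mice. CT2A is a murine glioblastoma (GBM) line, so every splenic library also came from a tumor-bearing host. Once tumors had reached 2 mm3, mice were given 4 doses of 250 µg, 3 days apart, of an IgG control (IgG2a in the paper) or of antibodies to PD1 and GITR together (αPD1 + αGITR), and tissues were taken 2 days after the last dose. Libraries numbered 7 for splenic Treg cells after IgG2a, 8 for splenic Treg cells after αPD1 + αGITR, 5 for GBM Treg cells after IgG2a and 7 for GBM Treg cells after αPD1 + αGITR. By the legend of the experiment the animals were 5 after IgG2a and 7 after αPD1 + αGITR, as many as the GBM libraries but fewer than the splenic ones. Taken as given, these numbers mean that some splenic libraries share an animal, and which ones is not stated. The 7 splenic IgG2a libraries carry 4 label numbers (4 of them number 79, as replicates spleen_79_a to spleen_79_d), and the 8 treated ones carry 5. In GBM the 5 IgG2a libraries carry 5 label numbers and the 7 treated ones also 5, with numbers 70 and 73 repeated. What a number marks is not stated. Each library is counted as 1 sample here, so p-values that involve the spleen may be too small and measure a spread that is in part technical. The same holds for the treated GBM libraries if those of 1 label number share an animal. The age of the animals is not given in the sources used here. No group received either antibody alone, so the 2 antibodies cannot be told apart.

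CD28 is the main co-stimulatory receptor of T cells, and CTLA4 competes with it for the ligands CD80 and CD86. ICOS, a relative of CD28, binds ICOSL. CD226 gives an activating signal on binding CD155 (*Pvr*) or nectin-2, ligands that the inhibitory receptor TIGIT also binds and of which CD96 binds CD155. PD1 (*Pdcd1*) binds PD-L1 and PD-L2, LAG3 binds MHC class II, TIM3 (*Havcr2*) has several ligands including galectin-9, and BTLA binds HVEM (*Tnfrsf14*). Treg cells carry CTLA4 and use it to strip CD80 and CD86 from antigen-presenting cells, and Treg cells of tumors are known to carry many of these receptors at high density.

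In the mouse genome (GRCm38, the assembly also called mm10) 4 of the 10 genes lay on chromosome 1. *Cd28* (chr1:60716800-60773359), *Ctla4* (chr1:60887000-60915832) and *Icos* (chr1:60977927-61000320), all on the plus strand, were neighbors with gaps of 114 kb and 62.1 kb and no other protein-coding gene between them. *Pdcd1* (chr1:94038305-94052553, minus strand) lay 33.0 Mb further along. *Tigit* (chr16:43648867-43664146, minus strand), *Btla* (chr16:45224315-45257670, plus strand) and *Cd96* (chr16:46035657-46120251, minus strand) lay on chromosome 16, with gaps of 1.56 Mb and 0.778 Mb. *Lag3* was at chr6:124904361-124911705 on the minus strand and *Havcr2* at chr11:46454935-46481255 on the plus strand. *Ctla4* overlaps a processed pseudogene and *Icos* an unclassified transcript on the same strand, and reads of these pairs could be split between features. The other 8 genes overlap no annotated gene.

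Promoters are shown for *Pdcd1*, *Tigit*, *Havcr2*, *Ctla4* and *Cd96*, because the first 4 were higher in GBM than in splenic Treg cells after αPD1 + αGITR while *Cd96* was not. The RefSeq promoter table (GRCm38.p6) held 6 of the 10 genes, with 250 bases before and 50 bases after the start that it gives for each. The windows were searched on either strand for the letters GGAAA (NFAT), TGANTCA (AP-1) and TGTGGT (Runx), and matches are in capitals. The windows are *Pdcd1* at chr1:94052504-94052803 (minus strand), *Tigit* at chr16:43664135-43664434 (minus strand), *Havcr2* at chr11:46454681-46454980 (plus strand), *Ctla4* at chr1:60908775-60909074 (plus strand) and *Cd96* at chr16:46120199-46120498 (minus strand), each written 5′ to 3′ on the strand of the gene.
Pdcd1: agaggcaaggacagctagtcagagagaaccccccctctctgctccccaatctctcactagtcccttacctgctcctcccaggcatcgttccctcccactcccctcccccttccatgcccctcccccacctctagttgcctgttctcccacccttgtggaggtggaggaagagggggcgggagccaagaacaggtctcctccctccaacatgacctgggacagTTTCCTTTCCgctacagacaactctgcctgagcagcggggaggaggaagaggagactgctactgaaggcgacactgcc
Tigit: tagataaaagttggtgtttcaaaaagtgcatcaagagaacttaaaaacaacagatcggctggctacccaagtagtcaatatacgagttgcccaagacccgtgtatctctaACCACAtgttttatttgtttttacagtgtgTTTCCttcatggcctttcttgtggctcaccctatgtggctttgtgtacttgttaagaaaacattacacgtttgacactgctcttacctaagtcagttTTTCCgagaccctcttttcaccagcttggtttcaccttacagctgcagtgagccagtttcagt
Havcr2: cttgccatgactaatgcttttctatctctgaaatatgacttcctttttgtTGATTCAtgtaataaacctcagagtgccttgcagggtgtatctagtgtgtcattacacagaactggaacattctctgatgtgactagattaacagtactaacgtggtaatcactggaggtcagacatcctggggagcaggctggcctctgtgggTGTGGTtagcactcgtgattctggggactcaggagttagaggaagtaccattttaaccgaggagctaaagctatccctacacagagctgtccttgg
Ctla4: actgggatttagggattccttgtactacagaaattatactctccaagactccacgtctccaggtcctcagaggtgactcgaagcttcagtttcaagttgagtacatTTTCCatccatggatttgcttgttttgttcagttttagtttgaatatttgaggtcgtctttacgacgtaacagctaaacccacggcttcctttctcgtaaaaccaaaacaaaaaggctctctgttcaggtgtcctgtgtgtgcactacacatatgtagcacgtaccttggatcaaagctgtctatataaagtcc
Cd96: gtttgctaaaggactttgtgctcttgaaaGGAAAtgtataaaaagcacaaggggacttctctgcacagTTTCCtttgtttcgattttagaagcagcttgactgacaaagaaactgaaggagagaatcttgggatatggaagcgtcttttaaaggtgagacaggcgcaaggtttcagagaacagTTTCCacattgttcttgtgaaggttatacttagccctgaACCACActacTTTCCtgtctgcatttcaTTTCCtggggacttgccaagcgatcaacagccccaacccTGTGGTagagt

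GGAAA or its reverse complement occurred 2 times in the *Pdcd1* window, 2 times in *Tigit*, 1 time in *Ctla4*, 5 times in *Cd96* and 0 times in *Havcr2*. This motif was held by 61.3% of all 32851 RefSeq promoters listed. The *Havcr2* window held 1 match to TGANTCA, found in 7.81% of promoters, and no other window printed here did. TGTGGT occurred 1 time in *Tigit*, 1 time in *Havcr2* and 2 times in *Cd96*, against 16.8% of promoters with at least 1 match. Matches of these letters do not show that a factor was bound.

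The sorted cells carried Treg and T cell transcripts in every library. *Izumo1r* and *Foxp3*, the lineage factor of Treg cells, led the Treg list and were above 0 in each of the 27 libraries, as was each of 10 general T cell genes, led by *Trac* and *Lck*. The summed TPM (a transcript abundance corrected for length, with a fixed sum per library) of the T cell genes ranged from 367 to 3211 in splenic and from 1694 to 4394 in GBM libraries. The Treg list summed to 191 to 1745 TPM in the spleen after IgG2a and 162 to 1359 TPM after αPD1 + αGITR. In GBM it summed to 854 to 1660 TPM and 1004 to 1822 TPM. *Gpr83* of this list was at 0 in 2 libraries and *Tnfrsf18* in 1. After IgG2a *Gpr83* averaged 1.55 TPM in GBM and 56.3 TPM in the spleen, while *Foxp3* averaged 176 and 170 TPM. In bulk libraries fewer cells of a type and less RNA per cell cannot be told apart. Macrophage and microglial genes (16 listed, led by *C1qb* and *Lyz2*) summed to 36.2 to 124 TPM in the spleen after IgG2a and 20.9 to 385 TPM after αPD1 + αGITR, and in GBM to 83.0 to 6818 TPM and 83.9 to 2840 TPM. NK cell genes (6 listed, led by *Klre1* and *Klrb1c*, with the defining *Ncr1* at 0 in 18 of 27 libraries) summed to at most 18.2 TPM in any library, and the CD8 T cell genes *Cd8b1* and *Cd8a* to at most 36.6 TPM. B cell genes (9 listed, led by *Ighm* and *Cd79b*) reached 977 TPM, dendritic cell genes (8 listed, led by *Ccr7*, which T cells also express, and *Zbtb46*) 292 TPM, and neural and glioma genes (9 listed, led by *Mbp* and *Gfap*) 180 TPM. GBM IgG2a replicate tumor_369_a stood apart with 7702 genes above 1 TPM, against 10175 to 17460 in the other libraries, and results for several receptors are given with and without it.

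In GBM Treg cells *Icos*, *Tigit*, *Lag3*, *Pdcd1* and *Ctla4* were the most abundant of the 10 receptor mRNAs, while *Cd226*, *Cd96* and *Btla* were the lowest. TPM are scaled per length, so genes can be compared on this scale. After IgG2a, *Icos* was at 278 ± 159 TPM (SD, n = 5), *Tigit* at 258 ± 163, *Lag3* at 224 ± 198, *Pdcd1* at 154 ± 75.5 and *Ctla4* at 105 ± 31.0. The order of the first 3 rested on replicate tumor_369_a, without which *Lag3* led at 279 ± 180 TPM (n = 4), with *Icos* at 212 ± 66.6 and *Tigit* at 188 ± 53.2. After αPD1 + αGITR, these 5 were at 296 ± 114 (n = 7), 249.8 ± 98.6, 224 ± 131, 147 ± 69.0 and 121 ± 37.0 TPM. *Icos* exceeded *Tigit* in 4 of 5 and 5 of 7 GBM libraries, a log2 difference within a library of 0.14 ± 0.51 and 0.25 ± 0.55 (SD), so these neighbors did not differ beyond their spread. *Ctla4* exceeded *Cd28* in each of the 12 GBM libraries. *Cd28* was at 18.2 ± 11.0 and 40.5 ± 11.1 TPM and *Havcr2* at 12.3 ± 11.0 and 14.5 ± 6.48 TPM.

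The order in the spleen was different. After IgG2a, *Ctla4* (26.3 ± 39.9 TPM, n = 7), *Cd28* (17.6 ± 16.2), *Icos* (17.3 ± 20.9) and *Cd96* (18.9 ± 29.2) led the log2 means, and none of the neighbors in this order was higher than the next in more than 5 of 7 libraries. After αPD1 + αGITR, *Lag3* led at 64.1 ± 55.4 TPM (n = 8) and exceeded *Pdcd1*, the next in order at 32.3 ± 18.7 TPM, in 7 of 8 libraries. *Havcr2* was lowest in both splenic groups, at 0.686 ± 1.08 and 0.769 ± 0.961 TPM, and was listed at 0 in 5 of the 15 splenic libraries.

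**Figure D1:**
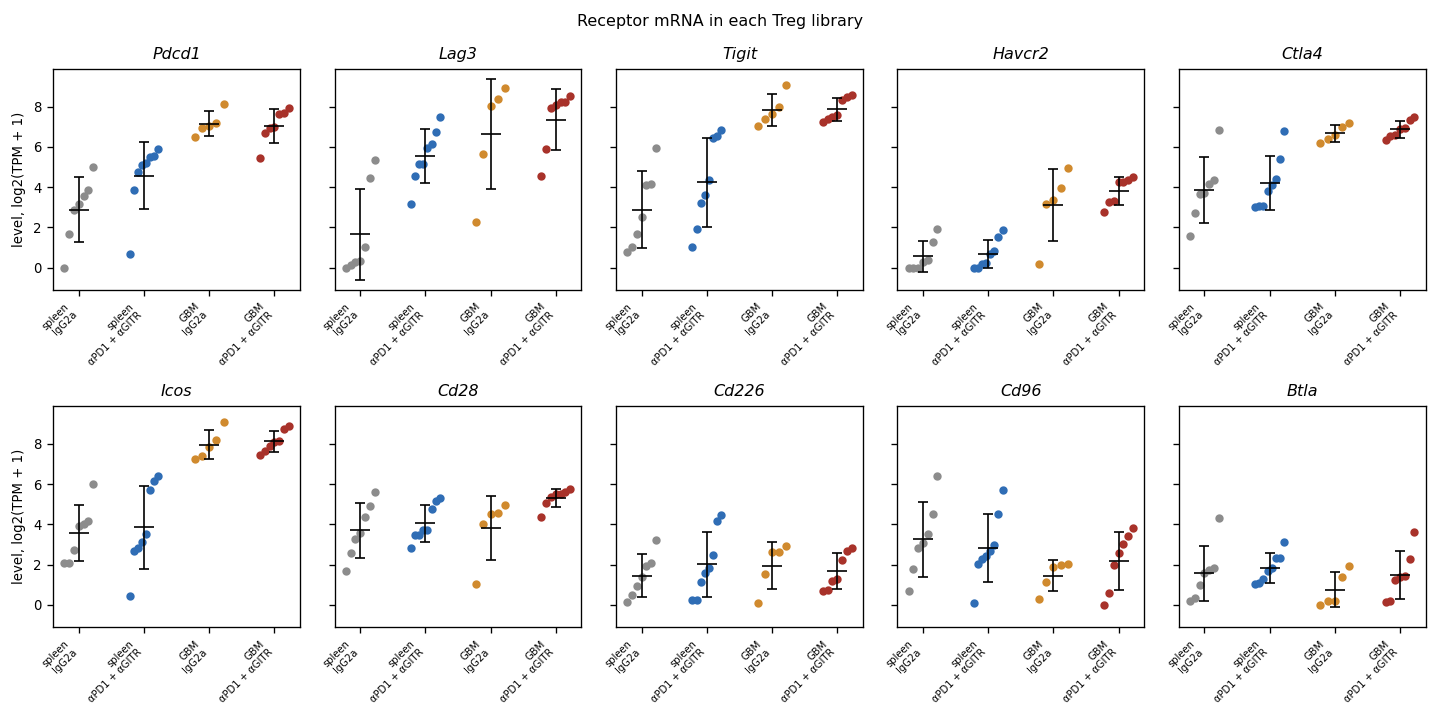
Level of each receptor mRNA, as log2(TPM + 1), in the 27 Treg libraries by group; points are libraries and bars are the mean ± SD. *Icos* and *Tigit* of every GBM library lie above every splenic library of the same treatment, whereas *Cd226*, *Cd96* and *Btla* overlap between tissues.

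The first comparison was of GBM with splenic Treg cells under the same treatment, the question being how receptor transcription differs with the tumor site. After IgG2a, 4 of the 8 receptors tested rose in GBM (*Pdcd1*, *Lag3*, *Tigit* and *Icos*) and none fell, by limma on log2(TPM + 1) with Benjamini-Hochberg adjustment over all 7380 genes tested. Over all genes 0.488% rose and 0.0813% fell by the same criterion. Without the filter on low values none of the 4 passed (limma adjusted p between 0.0702 and 0.430), and after αPD1 + αGITR *Pdcd1* did not (limma adjusted p = 0.109). The median log2 fold change of the 8 receptors tested was 3.55, against 0.48 for all genes. After αPD1 + αGITR, 5 of 8 rose (*Pdcd1*, *Tigit*, *Havcr2*, *Ctla4* and *Icos*) and none fell, against 15.8% of 7506 genes that rose and 1.61% that fell. The median of the 8 was 2.57, against 0.95 for all genes. *Lag3* after IgG2a and *Havcr2* under both treatments reached the filter (a group mean over 10 TPM) only through GBM, where they are high, and *Cd96* only through the spleen, so these counts are a description. With a mean over 10 TPM required in both groups, 3 of 5 receptors passed after IgG2a (*Pdcd1*, *Tigit* and *Icos*) and 4 of 6 after αPD1 + αGITR (*Pdcd1*, *Tigit*, *Ctla4* and *Icos*). Over all genes 8 of 4476 and 526 of 4966 passed as higher with that filter. When libraries of a group with the same label number were averaged, an alternative chosen after seeing the data, 3 of 8 passed after IgG2a, with *Lag3* at 4.89 (limma adjusted p = 0.108), and 4 of 8 after αPD1 + αGITR, with *Ctla4* at 2.23 (limma adjusted p = 0.0544). With this averaging 26 of 7380 and 236 of 7506 genes passed as higher. The split of all calls, 1189 higher and 121 lower, moved with scaling, to 283 and 321 with TMM-type factors, 443 and 651 with quantile normalization and 116 and 815 relative to general T cell genes, and after IgG2a from 36 and 6 to 32 and 16, 58 and 44, and 24 and 25. *Tigit* and *Icos* passed as higher under each of these scalings and both treatments. With a block for the label number neither passed after IgG2a, nor did any other receptor (lowest limma adjusted p = 0.138). The median log2 fold change of the 8 receptors was then 3.53, and 2 of 7380 genes passed as higher and 0 as lower. After αPD1 + αGITR 5 of 8 receptors passed with this block, beside 457 of 7506 genes higher and 38 lower. *Cd226* and *Btla* did not reach the filter in either tissue comparison and were not tested by limma. The first 4 genes had been named in the study of these same samples, and the receptors were listed with their change known, so the counts are no independent evidence of a direction. Of the 10 receptors, 40 exact permutation tests over libraries (two-sided, 10 genes in 4 comparisons) were also run and are given unadjusted. The smallest p possible is 0.00126 with 5 libraries against 7 and 0.000155 with 7 against 8.

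*Icos*, a co-stimulatory receptor of effector T cells and Treg cells, was at 544, 169, 232, 151 and 297 TPM in the 5 GBM libraries after IgG2a (replicates tumor_369_a, tumor_76_a, tumor_77_a, tumor_78_a and tumor_79_a) and at 3.26 to 62.9 TPM (median 14.0) in the spleen. After αPD1 + αGITR it was at 177 to 473 TPM (median 272) in GBM and 0.35 to 83.4 TPM (median 9.10) in the spleen. The groups did not overlap under either treatment, as was the case for 1.25% of genes higher in GBM after IgG2a and 2.96% after αPD1 + αGITR. The log2 fold change was 4.39 (SE 0.80, limma adjusted p = 0.00352) after IgG2a and 4.27 (SE 0.71, adjusted p = 0.000651) after αPD1 + αGITR.

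*Tigit*, the inhibitory receptor for CD155, was at 538, 256, 197, 130.0 and 168 TPM in the same 5 GBM libraries and at 0.72 to 60.5 TPM (median 4.66) in splenic Treg cells after IgG2a. After αPD1 + αGITR it was at 151 to 380 TPM (median 194) in GBM and 1.05 to 112 TPM (median 15.6) in the spleen. Again no library of one tissue reached into the other. Its tissue difference on the log2 scale was 4.94 (SE 0.88, limma adjusted p = 0.00332) and 3.63 (SE 0.74, adjusted p = 0.00337).

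*Pdcd1*, which encodes the receptor that αPD1 binds, was at 284, 129, 145, 122 and 89.5 TPM in GBM after IgG2a and at 0 to 31.1 TPM (median 7.95) in the spleen. After αPD1 + αGITR, it was at 43.2 to 242 TPM (median 125) in GBM and 0.62 to 59.2 TPM (median 34.9) in the spleen. The tissues were separate after IgG2a and overlapped after αPD1 + αGITR, where 6 of 7 GBM libraries lay above every splenic one. By limma the log2 change was 4.28 (SE 0.84, limma adjusted p = 0.00790) and 2.47 (SE 0.65, adjusted p = 0.0160). With a pseudocount of 0.1 the IgG2a call was lost (4.90, limma adjusted p = 0.0825), as was that of *Lag3* (6.41, adjusted p = 0.104).

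*Lag3*, the inhibitory receptor for MHC class II, was uneven in GBM after IgG2a, at 3.78, 329, 481, 258 and 48.7 TPM, with replicate tumor_369_a the lowest. The spleen after IgG2a held 0 to 39.2 TPM (median 0.270), and only replicates spleen_369_a and spleen_79_b were above 2 TPM. After αPD1 + αGITR, *Lag3* was at 22.6 to 372 TPM (median 267) in GBM and 7.98 to 179 TPM (median 47.9) in the spleen, and the tissues overlapped. The log2 fold change was 4.98 (SE 1.10, limma adjusted p = 0.0226) after IgG2a and 1.82 (SE 0.66, adjusted p = 0.0558) after αPD1 + αGITR, the latter not past the threshold. Without replicate tumor_369_a the IgG2a difference was 6.08 (SE 1.03, limma adjusted p = 0.00488), and each of the 4 GBM libraries left lay above the 7 splenic ones. The IgG2a call was lost without spleen_76_a, tumor_76_a, tumor_77_a or tumor_78_a (limma adjusted p between 0.0674 and 0.0849), and *Lag3* passed after αPD1 + αGITR without spleen_73_a, spleen_80_a, tumor_73_a or tumor_73_b (1.99 to 2.28).

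*Ctla4*, the inhibitory rival of CD28, was at 146, 129, 82.9, 95.7 and 72.8 TPM in GBM after IgG2a, and at 79.5 to 178 TPM (median 119) after αPD1 + αGITR. The spleen held 1.96 to 116 TPM (median 12.2) and 7.04 to 110 TPM (median 14.6). In each splenic group 1 library reached into the GBM range, replicate spleen_79_b at 116 TPM after IgG2a and replicate spleen_74_a at 110 TPM after αPD1 + αGITR, and these 2 had the highest summed T cell genes of their groups (3211 and 2724 TPM). Its log2 change between tissues was 2.81 (SE 0.83, limma adjusted p = 0.124) after IgG2a, with an exact permutation p of 0.0101, and 2.67 (SE 0.56, adjusted p = 0.00377) after αPD1 + αGITR. Without replicate spleen_79_b the IgG2a difference was 3.31 and passed the adjusted threshold (limma adjusted p = 0.0280).

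*Havcr2*, which encodes TIM3, was near 0 in the spleen and modest in GBM. GBM libraries after IgG2a held 0.12, 9.30, 14.6, 7.85 and 29.7 TPM and the splenic ones 0 to 2.84 TPM (median 0.230), so replicate tumor_369_a alone fell within the splenic range. After αPD1 + αGITR, the 7 GBM libraries held 5.82 to 22.1 TPM (median 18.3), above each of the 8 splenic libraries, which held 0 to 2.61 TPM (median 0.400). The log2 difference was 2.56 (SE 0.99, limma adjusted p = 0.352, exact permutation p = 0.00884) after IgG2a and 3.16 (SE 0.60, adjusted p = 0.00204) after αPD1 + αGITR. Leaving out replicate tumor_369_a, the first became 3.30 (SE 0.91, limma adjusted p = 0.107), with each GBM library above every splenic one.

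Macrophages and microglia also express *Havcr2*, and some of their marker genes differed between tissues. After αPD1 + αGITR, 3 of 10 macrophage genes tested passed the threshold, all higher in GBM (*Cx3cr1* and *C1qa* among them, beside 15.8% of all genes, both having reached the filter only through GBM), and after IgG2a 0 of 13 did, where 3 had an unadjusted limma p under 0.05, all higher (7.63% of all genes). The library with the most *Havcr2*, GBM IgG2a replicate tumor_79_a, also had the largest macrophage sum, 6818 TPM. Replicate tumor_80_a, which held the most *Havcr2* of the treated GBM group (22.1 TPM), had the smallest macrophage sum of that group, 83.9 TPM. The part of these cells in the *Havcr2* levels was not tested.

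*Cd28* had the smallest tissue difference of the 8 receptors tested after IgG2a. It was at 1.05, 22.6, 30.2, 15.3 and 22.0 TPM in GBM and 2.24 to 47.9 TPM (median 10.8) in the spleen after IgG2a, and at 19.9 to 53.4 TPM (median 44.4) and 6.01 to 38.6 TPM (median 12.2) after αPD1 + αGITR. The groups overlapped under both treatments. Between tissues it differed on the log2 scale by 0.11 (SE 0.90, limma adjusted p = 0.970) after IgG2a, and 0.81 (SE 0.81) without replicate tumor_369_a. After αPD1 + αGITR it was 1.26 (SE 0.50, limma adjusted p = 0.0718, exact permutation p = 0.00839), and it passed without spleen_70_c (1.42) or spleen_74_a (1.44).

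Of the other CD155 receptors, neither passed a test of tissue in TPM, *Cd96* by limma or *Cd226* by permutation. *Cd96* was at 0.21 to 3.11 TPM in GBM and 0.60 to 83.2 TPM (median 7.46) in the spleen after IgG2a, a log2 fold change of -1.80 (SE 0.97, limma adjusted p = 0.545). After αPD1 + αGITR, it was at 0 to 13.2 TPM and 0.06 to 50.9 TPM, a log2 fold change of -0.64 (SE 0.78, limma adjusted p = 0.519), and with quantile normalization *Cd96* was past the threshold as lower (-1.93, limma adjusted p = 0.0470). *Cd226* (chr18:89176967-89272229, plus strand) was at 0.07 to 6.53 TPM in GBM and 0.12 to 8.37 TPM in the spleen after IgG2a, and at 0.62 to 6.16 and 0.17 to 21.1 TPM after αPD1 + αGITR. *Btla*, the receptor for HVEM, was at 0 to 2.84 and 0.13 to 18.9 TPM after IgG2a, and at 0.12 to 11.3 and 1.05 to 7.86 TPM after αPD1 + αGITR. The exact permutation p for *Cd226* and *Btla* lay between 0.278 and 0.618 in the tissue comparisons.

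**Figure D2:**
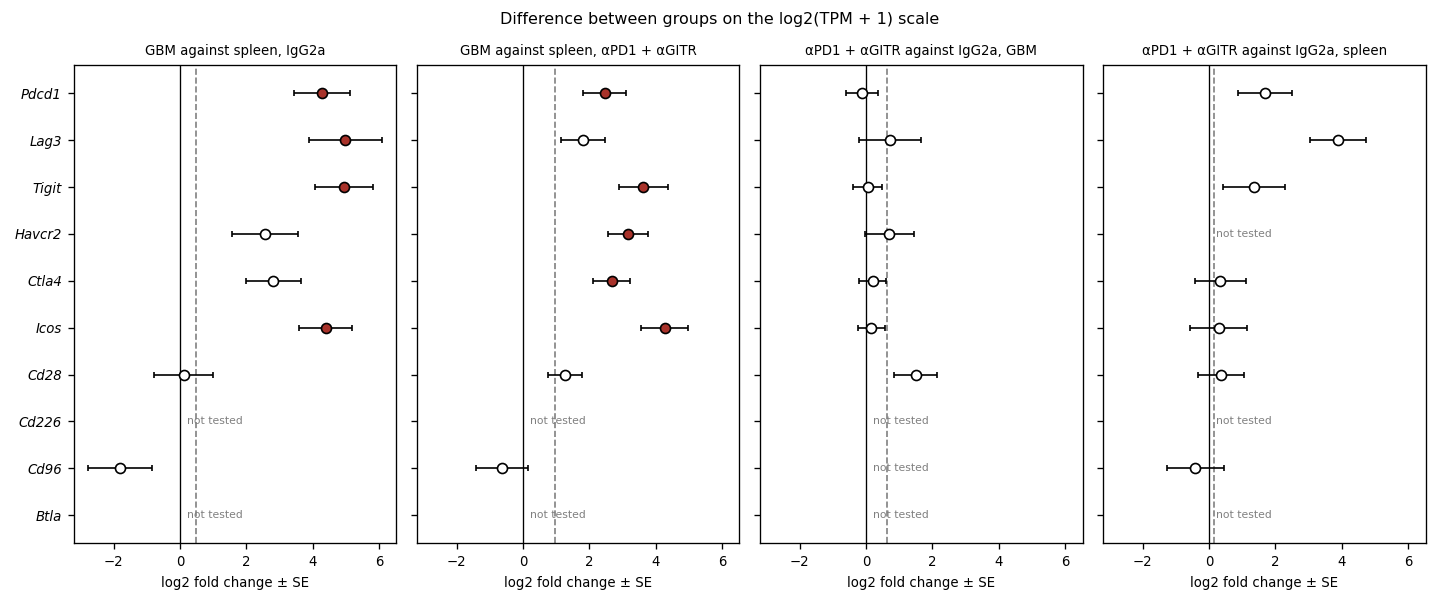
Log2 fold change ± SE of each receptor in the 4 comparisons, from limma on log2(TPM + 1). Filled points passed the adjusted threshold of 0.05, the dashed line is the median of all genes tested, and genes below the filter are marked as not tested; filled points occur in the tissue comparisons only, 4 after IgG2a and 5 after αPD1 + αGITR.

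General T cell genes were compared between tissues as well. Of the 10 general T cell genes, 0 passed the adjusted threshold between tissues by limma after IgG2a (1 with an unadjusted p under 0.05) and 4 after αPD1 + αGITR, all higher in GBM, as were 15.8% of all genes. When the mean log2 level of these 10 genes was subtracted within each library, an alternative chosen after seeing the data, *Tigit* (4.18, limma adjusted p = 0.00290), *Icos* (3.63, adjusted p = 0.00290) and *Pdcd1* (3.53, adjusted p = 0.0220) stayed past the threshold after IgG2a and *Lag3* (4.23, adjusted p = 0.0993) did not. After αPD1 + αGITR, *Icos* (3.02, limma adjusted p = 0.00181), *Tigit* (2.38, adjusted p = 0.00924) and *Ctla4* (1.42, adjusted p = 0.0326) stayed past it. *Pdcd1* (1.22, limma adjusted p = 0.101; 1.77 and 0.0624 with TMM-type factors) and *Havcr2* (1.91, adjusted p = 0.0814) no longer passed.

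On this scale the means of *Cd28* differed by less than 1 SD among 3 of the 4 groups. Its log2 level relative to the T cell genes was -2.77 ± 0.48 in the spleen after IgG2a (SD, n = 7), -2.67 ± 0.45 in the spleen after αPD1 + αGITR (n = 8) and -2.65 ± 0.37 in GBM after αPD1 + αGITR (n = 7). In GBM after IgG2a it was -3.42 ± 1.66 (n = 5) with replicate tumor_369_a and -2.68 ± 0.30 (n = 4) without it. The rank correlation of *Cd28* with the T cell genes was 0.90 over the 15 splenic libraries and 0.79 over the 12 GBM libraries, points that share the scaling of a library. *Cd96* was lower in GBM relative to the T cell genes after IgG2a, with a log2 difference of -2.55 (exact permutation p = 0.00126, the smallest possible, limma adjusted p = 0.175), and the difference was -1.89 after αPD1 + αGITR (exact permutation p = 0.0250, limma adjusted p = 0.108). On this scale *Btla* differed by -1.58 after IgG2a and -1.61 after αPD1 + αGITR (exact permutation p = 0.0177 and 0.00979). *Cd226* differed by -0.27 and -1.60 (exact permutation p = 0.711 and 0.0169). These 2 genes rest on values near 0, and the permutation p are unadjusted.

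**Figure D3:**
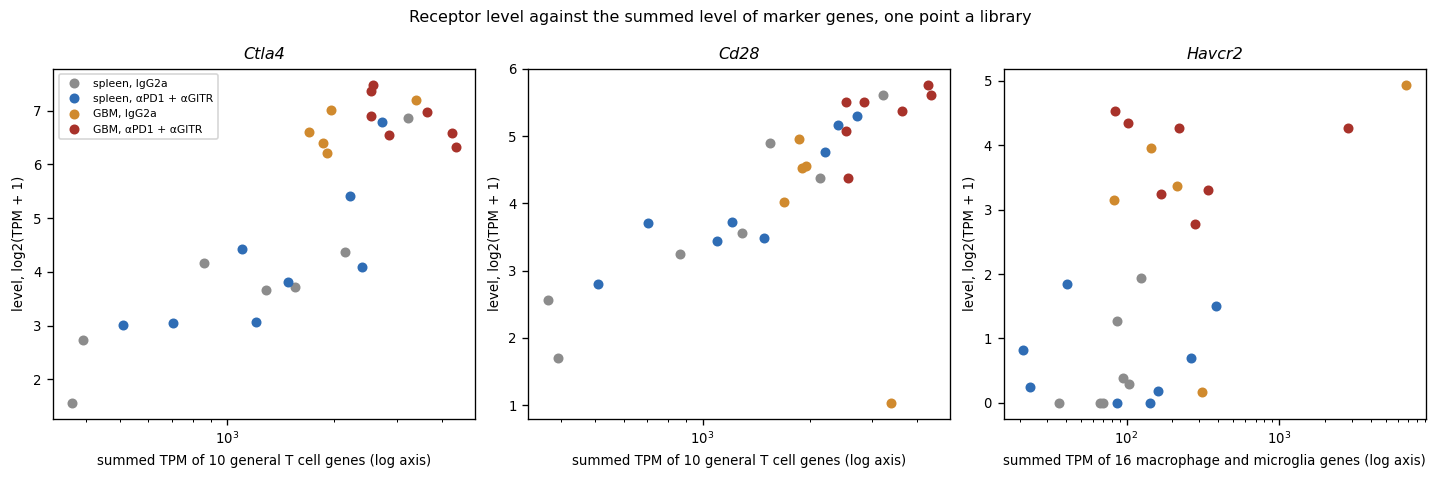
Level of *Ctla4* and *Cd28*, as log2(TPM + 1), against the summed TPM of 10 general T cell genes, and of *Havcr2* against the summed TPM of 16 macrophage and microglia genes (log axes), 1 point a library. *Cd28* follows the T cell genes in both tissues apart from GBM IgG2a replicate tumor_369_a at 1.05 TPM. *Havcr2* of each GBM library lies above every splenic library apart from the same replicate at 0.12 TPM. Macrophage sums ran from 20.9 to 385 TPM in the spleen and from 83.0 to 6818 TPM in GBM, so no splenic library matches the highest GBM sums.

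Receptors that share ligands or a locus were then compared within each library, where a library's scaling largely cancels for abundant genes but less so for those near 0 such as *Cd226*, since 1 was added to each TPM. The 4 log2 ratios in 4 comparisons gave 16 exact permutation tests, adjusted together by Benjamini-Hochberg. A difference in a ratio equals the difference between the log2 changes of its 2 genes, which are reported in this section. The pairs were formed from receptors listed with their change known, so these tests are a description and no independent evidence. *Tigit* over *Cd226*, the inhibitory against the activating receptor for CD155, was 1.43 ± 1.27 in the spleen and 5.88 ± 1.78 in GBM after IgG2a, and 2.23 ± 1.97 and 6.20 ± 0.63 after αPD1 + αGITR (log2 scale, SD). All 5 GBM libraries lay above the 7 splenic ones after IgG2a (exact permutation p = 0.00126, adjusted p = 0.00404). Without replicate tumor_369_a GBM was at 5.10 ± 0.46 (n = 4) and the tissue difference fell from 4.45 to 3.68 (adjusted p = 0.0121 in the exact permutation test). After αPD1 + αGITR 2 of 7 GBM libraries lay above replicate spleen_80_a, itself at 6.58, which was far above the next splenic library at 2.78 (exact permutation p = 0.00109, adjusted p = 0.00404). *Cd96* over *Cd226* went the other way after IgG2a, 1.80 ± 1.49 in the spleen and -0.49 ± 0.45 in GBM (exact permutation p = 0.0139, adjusted p = 0.0317), and lost the adjusted threshold with a pseudocount of 0.1 (-2.87, adjusted p = 0.0519) or 10 (-0.997, adjusted p = 0.0606), or without any of 6 single libraries. It was 0.82 ± 2.50 and 0.53 ± 1.19 after αPD1 + αGITR (exact permutation p = 0.793).

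*Ctla4* over *Cd28*, neighboring genes that compete for the same ligands, was near even in the spleen, at 0.16 ± 0.97 after IgG2a and 0.16 ± 0.89 after αPD1 + αGITR. In GBM it was 2.86 ± 1.91 and 1.56 ± 0.82. The tissues did not overlap after IgG2a (exact permutation p = 0.00126, adjusted p = 0.00404), and after αPD1 + αGITR 4 of 7 GBM libraries lay above the highest splenic one (exact permutation p = 0.00699, adjusted p = 0.0186). *Icos* over *Cd28* was -0.14 ± 0.57 and -0.19 ± 1.21 in the spleen and 4.14 ± 2.21 and 2.81 ± 0.45 in GBM, and the tissues were separate under both treatments (adjusted p = 0.00404 and 0.00249 in the exact permutation test). Without replicate tumor_369_a, GBM after IgG2a was at 2.03 ± 0.56 for *Ctla4* over *Cd28* and 3.16 ± 0.39 for *Icos* over *Cd28* (n = 4).

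**Figure D4:**
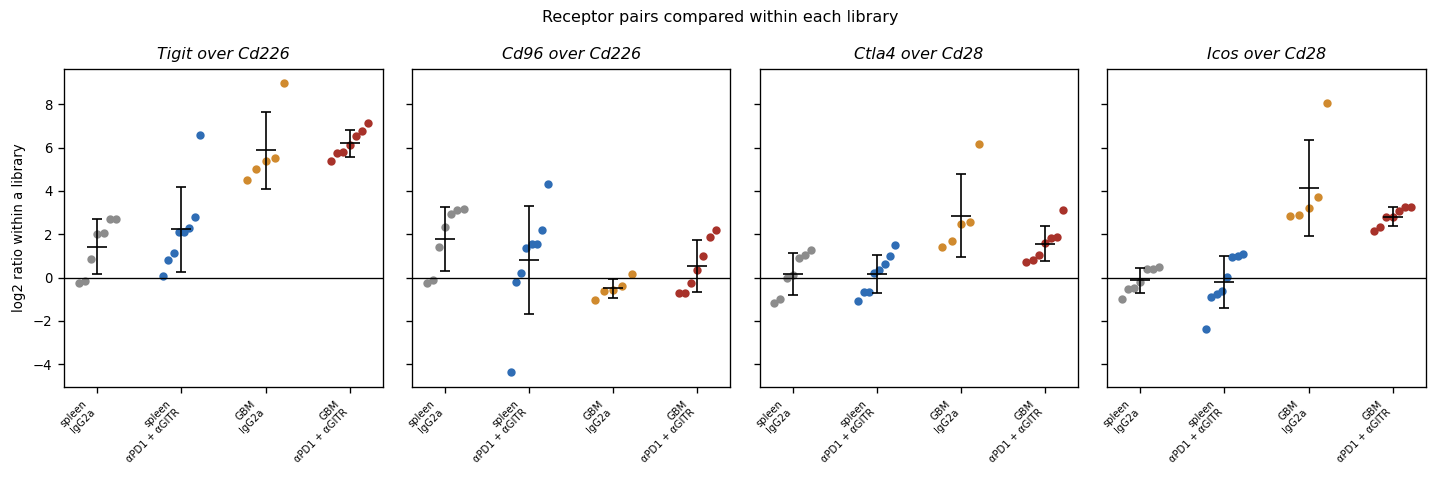
Log2 ratio of 4 receptor pairs within each library, by group; points are libraries, bars the mean ± SD, and the line marks equal TPM + 1. Ratios of *Ctla4* and *Icos* to *Cd28* scatter about 0 in the spleen and are positive in each of the 12 GBM libraries.

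The second question was what αPD1 + αGITR changed within a tissue. In GBM Treg cells 0 of the 7 receptors tested passed the adjusted threshold in limma, as did 0 of all 7848 genes (0% in either direction), and 1 receptor, *Cd28*, had an unadjusted p under 0.05, against 17.4% of genes higher and 4.91% lower at that level. The count over all genes was not stable, with 134 higher and 129 lower with library weights, 3 and 221 relative to the T cell genes, 18 and 85 without replicate tumor_73_b and 5 and 16 without replicate tumor_79_a, and 0 receptors passed under any of these. The median log2 fold change of the 7 was 0.20, against 0.62 for all genes, and it became -0.50 with TMM-type factors and -0.53 relative to the T cell genes. *Pdcd1* (-0.12, SE 0.47), *Tigit* (0.05, SE 0.43), *Ctla4* (0.20, SE 0.41) and *Icos* (0.16, SE 0.41) were close to 0 in TPM, and *Pdcd1* was -0.82 with TMM-type factors and -0.85 relative to the T cell genes (limma adjusted p = 0.386). Relative to the T cell genes 6 of the 7 receptors were lower and 1 higher after treatment. The exact permutation p on that scale, unadjusted, was 0.0152 for *Pdcd1* and 0.0101 for *Tigit* (-0.68). *Lag3* (0.72, SE 0.94) and *Havcr2* (0.70, SE 0.74) turned to -0.38 and -0.033 without replicate tumor_369_a.

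*Cd28* was at 1.05 to 30.2 TPM in the 5 GBM libraries after IgG2a and at 19.9 to 53.4 TPM in the 7 after αPD1 + αGITR. Of the treated libraries, 6 of 7 lay above every IgG2a library. The log2 fold change was 1.50 (SE 0.64, limma p = 0.0304, adjusted p = 0.191, exact permutation p = 0.00758). With libraries of 1 label number averaged, its unadjusted limma p was no longer under 0.05. Without replicate tumor_369_a the log2 fold change was 0.80 (SE 0.40, limma adjusted p = 0.316, exact permutation p = 0.0303), and relative to the T cell genes it was 0.77 (exact permutation p = 0.242). T cell genes as a list had a median log2 fold change of 0.66 in this comparison, with 0 of 10 past the threshold and 2 (*Cd5* and *Lat*) with an unadjusted limma p under 0.05. *Icos* over *Cd28* was lower after αPD1 + αGITR by the difference -1.33, which did not pass after adjustment (exact permutation p = 0.0442, adjusted p = 0.0884), and was -0.35 without replicate tumor_369_a. *Tigit* over *Cd226* differed by 0.32 (exact permutation p = 0.691), and by 1.10 without replicate tumor_369_a (adjusted p = 0.0364).

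In splenic Treg cells 0 of 7 receptors passed the adjusted threshold in limma, as did 0 of 6634 genes (0% in either direction). Of the 7, 2 (*Lag3* and *Pdcd1*) had an unadjusted p under 0.05 and were higher, against 1.49% of genes higher and 1.04% lower. *Lag3* reached the filter only through the treated group, where it is high (64.1 against 8.81 TPM), so this count is a description. The median log2 fold change was 0.35 against 0.15 for all genes, and it ran from 0.15 (without spleen_79_d) to 0.84 (without spleen_79_b) with 1 library left out and was 0.73 with libraries of 1 label number averaged. *Lag3* was at 7.98 to 179 TPM in the 8 treated libraries, of which 4 lay above every IgG2a library, and 5 of 7 IgG2a libraries lay below every treated one. Its log2 fold change was 3.89 (SE 0.86, limma p = 9.77e-05, adjusted p = 0.449, exact permutation p = 0.00326). *Pdcd1* changed by 1.70 (SE 0.81, limma p = 0.0463, adjusted p = 1.00, exact permutation p = 0.0729), with replicate spleen_72_b at 0.62 TPM and the next treated library at 13.7 TPM. *Tigit* differed by 1.36 (SE 0.93), *Ctla4* by 0.34 (SE 0.76), *Icos* by 0.29 (SE 0.85), *Cd28* by 0.35 (SE 0.69) and *Cd96* by -0.42 (SE 0.86), none with an unadjusted p under 0.05, and *Cd28* ran from 0.010 to 0.66 with 1 library left out. *Havcr2*, *Cd226* and *Btla* were below the filter in the spleen, with exact permutation p of 0.775, 0.444 and 0.639.

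The difference of the treatment change between tissues was tested as an interaction over all 4 groups. For *Lag3* it was -3.17 (GBM minus spleen, SE 1.35, limma adjusted p = 0.345, with the unadjusted p under 0.05), or -4.26 (SE 1.25, limma adjusted p = 0.596) without replicate tumor_369_a, and for *Pdcd1* -1.82 (SE 1.03, adjusted p = 0.492). No further receptor of the 8 tested had an unadjusted p under 0.05, against 12.2% of 8687 genes that did, and 0 genes passed the adjusted threshold. The comparisons in this section share libraries, since each group enters more than 1 of them.

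Within the spleen the receptors tended to vary together. Taking each library's deviation from its group mean, the median rank correlation over the 45 pairs of receptors was 0.53 in the 15 splenic libraries, with 40 pairs positive, and 0.12 in the 12 GBM libraries, with 28 positive. *Icos* with *Cd28* (0.93) and *Tigit* with *Icos* (0.92) were the highest in the spleen. Relative to the T cell genes the medians were 0.05 and -0.08. These are descriptions of points that share a library and its scaling, and the difference between tissues was not tested. Replicate spleen_79_b after IgG2a and replicates spleen_70_c, spleen_74_a and spleen_80_a after αPD1 + αGITR held the most *Tigit*, *Icos* and summed T cell transcripts of their groups.

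Ligands of these receptors were also measured in the sorted cells. Of 15 listed, 6 were tested between tissues after IgG2a and 0 passed the adjusted threshold in limma, where *Pdcd1lg2* (PD-L2) at 14.8 ± 16.8 (SD, median 4.44) against 1.81 ± 2.16 TPM and *Tnfrsf14* (HVEM) at 73.04 ± 90.6 (median 21.6) against 17.2 ± 14.5 TPM had the lowest p (1 of the 6, *Pdcd1lg2*, had an unadjusted p under 0.05, against 7.63% of all genes higher and 2.3% lower, and it reached the filter only through GBM). The highest GBM library held 225.79 TPM of *Tnfrsf14*. After αPD1 + αGITR, 1 of 5 passed, beside 15.8% of all genes that rose. This was *Lgals9*, which encodes the TIM3 ligand galectin-9, at 76.9 TPM in GBM and 22.6 TPM in the spleen (log2 fold change 2.32, SE 0.65, limma adjusted p = 0.0212). *Pvr*, the shared ligand of TIGIT, CD96 and CD226, was at 14.4 ± 11.6 and 16.7 ± 8.05 TPM in GBM and 11.5 ± 13.4 and 5.30 ± 5.03 TPM in the spleen, after IgG2a and αPD1 + αGITR. *Cd80* and *Cd86* averaged at most 5.45 TPM in any group.

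Of 16 other immunoglobulin-superfamily receptors, 11 were tested between tissues. After IgG2a, 0 passed in limma and 4 had an unadjusted p under 0.05, all higher (7.63% of all genes), with *Pvrig* (2.98, SE 0.96) and *Cd48* (2.53, SE 0.92) having the lowest p. After αPD1 + αGITR, 3 rose in GBM: *Pvrig* (3.11, SE 0.69, limma adjusted p = 0.00631), the adhesion receptor *Cd2* (1.90, SE 0.44, adjusted p = 0.00816) and *Cd200r1* (2.01, SE 0.66, adjusted p = 0.0404), where 15.8% of all genes rose. *Pvrig* and *Cd200r1* reached the filter only through GBM. PVRIG is the inhibitory receptor for nectin-2, and its mRNA was at 13.03 and 22.8 TPM in GBM against 0.647 and 1.87 TPM in the spleen.

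Next were 18 signaling molecules downstream of the receptors. Between tissues after IgG2a, 0 of 16 tested passed in limma and 4 had an unadjusted p under 0.05 (3 higher, 1 lower, against 7.63% and 2.3% of all genes), with *Dok1* (2.66, SE 0.92) and *Inpp5d* (2.01, SE 0.78) having the lowest p. After αPD1 + αGITR, 4 of 18 rose in GBM: *Dok1* (3.39, limma adjusted p = 0.00702), the adaptor *Grb2* (2.25, adjusted p = 0.0245), *Inpp5d* (1.88, adjusted p = 0.0298), which encodes the phosphatase SHIP1, and *Sh2d2a* (1.42, adjusted p = 0.0302). Over all genes 15.8% rose, and *Grb2* reached the filter only through GBM. The median of the list was 0.86, below the 0.95 of all genes.

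Among 12 transcriptional regulators tied to these receptors, *Tcf7*, which encodes the factor TCF1 of naive and memory-like T cells, was lower in GBM. Its mean was 1.54 against 25.5 TPM after IgG2a (log2 fold change -3.53, SE 0.89, limma adjusted p = 0.0531, not past the threshold) and 6.23 against 29.7 TPM after αPD1 + αGITR (-2.70, SE 0.61, adjusted p = 0.00685). After IgG2a 0 of 10 tested passed and 3 had an unadjusted p under 0.05 (2 higher, 1 lower, against 7.63% and 2.3% of all genes), and *Maf* (2.84, SE 0.93) had the next lowest p. After αPD1 + αGITR, 3 of 9 rose in GBM: *Maf* (2.61, limma adjusted p = 0.00360), *Prdm1*, which encodes BLIMP1 (2.47, adjusted p = 0.0220), and *Nr4a3*, a gene induced by T cell receptor signaling (2.37, adjusted p = 0.0443), where 15.8% of all genes rose and 1.61% fell. *Maf* and *Prdm1* reached the filter only through GBM, and *Tcf7* only through the spleen. After IgG2a the 2 genes higher at the unadjusted level were *Maf* and *Tox*. *Tox* (49.3 against 9.99 TPM) also reached the filter there only through GBM.

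Within a tissue 0 genes of these 4 lists passed the adjusted threshold for treatment in limma. In GBM the genes with the lowest p were *Lgals9* (0.54) and *Hmgb1* (0.44) among ligands, *Vsir* (1.09) and *Ly9* (0.83) among other receptors, *Grb2* (2.00) and *Csk* (1.86) among signaling molecules, and *Nfatc1* (1.19) and *Prdm1* (2.02) among regulators, as log2 fold changes. Over the 4 lists 6 genes had an unadjusted p under 0.05 in GBM, all higher after treatment, where 17.4% of all genes were higher at that level and 4.91% lower, and 0 in the spleen. Of the 6, *Grb2* and *Akt1* reached the filter only through the treated group. In the spleen the lowest p were those of *Tnfrsf14* (1.15) and *Hmgb1* (0.42), *Slamf1* (-1.15) and *Lair1* (1.18), *Sh2d2a* (0.81) and *Cbl* (-0.70), and *Tox* (0.93) and *Nfatc1* (0.40).

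The genes whose levels across the 27 libraries were most like the mean log2 level of the 10 receptors, among 8687 genes, were *Sla* (Pearson r = 0.926), *Capg* (0.923), *Tnfrsf18* (0.918), *Srgn* (0.918) and *Tnfrsf9* (0.914). *Tnfrsf18* encodes GITR, the receptor that αGITR binds, and *Tnfrsf9* the co-stimulatory receptor 4-1BB. *Tnfrsf18* was at 42.9 and 71.9 TPM in the spleen and 244 and 397 TPM in GBM, after IgG2a and αPD1 + αGITR. These correlations hold the tissue difference and the shared scaling of each library.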

How the data were processed

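The authors sorted Treg cells, prepared Smart-Seq2 libraries, sequenced them on a NextSeq500 instrument, mapped the reads to the mm10 assembly by Tophat and quantified transcripts as TPM by RSEM. Versions are not given in the sources used here, and the submitters' processing notes name bcl2fastq, TopHat2 and mm10. The deposited values are a score equal to TPM plus 1: each is at least 1, and after 1 is taken off every column sums to about 1000000. Of 28 columns 27 carry a sample name, and 1 without a name was not assigned or used, which leaves 27 of 28 described samples. The read depth is unknown, so precision rests on the spread between libraries.

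Groups follow the sample labels. The limma package (3.58.1, under R 4.3.3, lmFit then eBayes with trend) was applied to log2(TPM + 1) of the groups compared, keeping genes whose mean TPM exceeded 10 in either group, with two-sided p-values adjusted by Benjamini-Hochberg over all genes tested (threshold 0.05). Exact permutation tests and ratios (pseudocount 1) were computed in Python 3.11.15. Gene positions were read from GRCm38 by symbol. Named were all 10 receptors, and of the ligand, receptor, signaling and regulator lists each gene past the threshold in a comparison or otherwise the 2 with the lowest p, of the marker lists the summed TPM and the 2 most abundant genes, and the 5 genes most like the receptors' mean. A few further list genes were named after their values were seen (*Pvr*, *Cd80*, *Cd86*, *Akt1* and marker genes beside a count). The members and lists were chosen with earlier results of these data known. The limma fit was also tested on simulated data with 200 changed genes. The choices varied were the pseudocount (0.1 or 10), the filter (none, or a mean over 10 TPM in both groups), the scaling (TMM-type factors, quantile normalization), library weights, a block for the label number, leaving out each library and, added after seeing the data, levels relative to 10 T cell genes and the averaging of libraries with 1 label number.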

Additional observations from a re-analysis of the deposited data

Results flagged for a closer look

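Of 56 sets of values examined for a library far from the rest of its group (10 receptors and 4 ratios in 4 groups), 7 held one, where chance alone flags about 1 in 20. The measure is the library's gap to its nearest neighbor as a share of the group's range. GBM IgG2a replicate tumor_369_a accounted for 4 of them: *Cd28*, with a gap of 0.761 of the range (1.04 against 4.03 on the log2(TPM + 1) scale), *Tigit* over *Cd226* with 0.773, *Ctla4* over *Cd28* with 0.759 and *Icos* over *Cd28* with 0.836. In splenic Treg cells after αPD1 + αGITR, *Pdcd1* was low in replicate spleen_72_b, with a gap of 0.610 (0.70 against 3.88), and *Tigit* over *Cd226* was high in replicate spleen_80_a, with a gap of 0.582 (6.58 against 2.78). After IgG2a, *Btla* was high in replicate spleen_79_b, with a gap of 0.595 (4.32 against 1.85).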

How the results depend on the processing

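Read depth is unknown, and low receptors (*Cd226*, *Btla*, and *Havcr2* in the spleen) rest on values near 0. Of 682 recomputed fold changes of single receptors, 609 kept their direction and their side of the threshold, as did 221 of 248 ratios. The cause of the changes given here was not tested. With library weights *Havcr2*, *Ctla4* (IgG2a), *Lag3* and *Cd28* (αPD1 + αGITR) also passed between tissues, as did *Lag3* after αPD1 + αGITR with a pseudocount of 10.

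After IgG2a the count of receptors past the threshold between tissues, 4 as reported, was 2 with a pseudocount of 0.1 and 0 without the filter, and 3 to 5 with 1 library left out. After αPD1 + αGITR, 5 as reported, it was 3 relative to T cell genes, where the median fold change was 1.32, and 5 to 6 with 1 library left out. Same-numbered libraries of the 2 tissues correlated between -0.115 and 0.182 after IgG2a (7 pairs) and between -0.305 and 0.0895 after αPD1 + αGITR (12 pairs), so the numbers were not taken to pair the libraries, which does not show that they came from different animals. The fit with this replicate block called 0 receptors after IgG2a and 5 after αPD1 + αGITR, and gave *Cd28* as -0.062 after IgG2a.

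*Cd28* between tissues after IgG2a (0.11) was -0.23 with TMM-type factors, -0.0020 with quantile normalization, -0.64 relative to T cell genes, -0.21 with libraries of 1 label number averaged, and -0.22 to 0.81 with 1 library left out. The ratio of *Cd96* over *Cd226* between tissues after αPD1 + αGITR was -1.03 to 0.21 with 1 library left out, and the same ratio after IgG2a lost its call without each of tumor_76_a, tumor_77_a, tumor_78_a, tumor_79_a, spleen_369_a and spleen_77_a.

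For treatment in GBM the median of the receptors (0.20) became -0.50 with TMM-type factors and -0.53 relative to T cell genes. With TMM-type factors *Tigit* was -0.65, *Ctla4* -0.50 and *Icos* -0.53. With quantile normalization *Tigit* was -0.15 and *Icos* -0.053. Relative to T cell genes *Lag3* was -0.0095, *Tigit* -0.68, *Havcr2* -0.024, *Ctla4* -0.53 and *Icos* -0.57. With library weights *Pdcd1* was 0.13 and *Lag3* -0.54. With 1 library left out *Pdcd1* was -0.29 to 0.14, *Lag3* -0.38 to 1.29, *Tigit* -0.15 to 0.36, *Havcr2* -0.033 to 1.16, *Icos* -0.017 to 0.44 and *Tigit* over *Cd226* -0.022 to 1.10. *Ctla4* over *Cd28* passed the threshold without tumor_73_a (-1.55), and *Tigit* over *Cd226* without tumor_369_a.

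For treatment in the spleen *Ctla4* was -0.034 with library weights. With 1 library left out *Ctla4* was -0.048 to 0.84, *Icos* -0.076 to 0.78, *Cd96* -0.85 to 0.11, *Ctla4* over *Cd28* -0.23 to 0.17 and *Icos* over *Cd28* -0.24 to 0.25. With a pseudocount of 10 these ratios were 0.015 and 0.17.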
